A study of Homo sapiens with 12 samples.

Results

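The metallothionein family was followed over 72 h in AGS cells, an established human gastric adenocarcinoma line, after exposure to mycophenolic acid (MPA), which blocks IMPDH and so the synthesis of guanine nucleotides. The members sought were the 8 genes MT1A, MT1E, MT1F, MT1G, MT1H, MT1M, MT1X and MT2A, and a probe was taken as a member when the array annotation gave it one of these symbols, old or current. In that way 7 of the 8 genes, out of 18852 genes named on the array, were found on 9 probes. No probe carried the symbol MT1A, which is not analysed here. RNA levels were read on 12 Illumina HumanHT-12 bead arrays. The 0 h group, before MPA, had 4 arrays, and the groups exposed to 2 µg/ml MPA for 12, 24, 48 or 72 h had 2 arrays each. All groups are the same cell line with no transgene or second agent named. There were no cells cultured for 12 to 72 h without MPA, so hours with MPA and hours in culture cannot be told apart. The labels do not say whether replicate arrays came from separate cultures, so every p-value measures only the spread between these arrays, which may be technical. In bulk RNA of this kind, fewer cells expressing a gene and less RNA per cell cannot be told apart.

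Metallothioneins are small cysteine-rich proteins that bind zinc, copper and cadmium through their thiol groups, buffering free zinc and protecting cells from toxic metals and oxidants. Free zinc activates the transcription factor MTF1, which binds metal response elements (MREs) in metallothionein promoters and in the promoter of SLC30A1, the gene of the plasma membrane zinc exporter ZnT1. Glucocorticoids also induce MT2A. MT2A and the MT1 genes lie in a cluster on chromosome 16 and are related copies. The probe sequences were not used here, so it was not tested whether a probe also reads RNA of another member.

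In RefSeq, the named genes of this cluster stand in the order MT2A, MT1E, MT1M, MT1A, MT1F, MT1G, MT1H and MT1X, with pseudogenes and MT1B between them. The promoters of the members are shown because they hold the sites through which the family is known to respond to metals, and SLC30A1 is shown because it is the other classical MTF1 target followed below. Promoter entries were found for 3 of the 8 members, and each sequence below is the 250 bases before the gene's start, 5′ to 3′ on the strand of the gene, from RefSeq build GRCh38.p14. MT2A is at chr16:56608334-56608583 on the plus strand, MT1H at chr16:56669564-56669813 on the plus strand, MT1X at chr16:56682220-56682469 on the plus strand and SLC30A1 at chr1:211579162-211579411 on the minus strand. Capitals mark each match to an MRE core, searched on both strands as TGCGCNC and TGCACNC, where N is any base. A match on the opposite strand is therefore printed in its reverse complement.
MT2A: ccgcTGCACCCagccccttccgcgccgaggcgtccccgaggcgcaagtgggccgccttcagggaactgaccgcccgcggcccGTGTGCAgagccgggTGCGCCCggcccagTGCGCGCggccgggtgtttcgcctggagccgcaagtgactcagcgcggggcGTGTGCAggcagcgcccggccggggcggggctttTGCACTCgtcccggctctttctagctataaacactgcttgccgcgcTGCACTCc
MT1H: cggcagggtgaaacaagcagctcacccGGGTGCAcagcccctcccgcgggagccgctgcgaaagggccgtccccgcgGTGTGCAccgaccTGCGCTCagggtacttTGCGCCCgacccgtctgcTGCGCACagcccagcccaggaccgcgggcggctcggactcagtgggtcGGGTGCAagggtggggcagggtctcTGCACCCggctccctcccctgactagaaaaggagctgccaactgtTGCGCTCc
MT1X: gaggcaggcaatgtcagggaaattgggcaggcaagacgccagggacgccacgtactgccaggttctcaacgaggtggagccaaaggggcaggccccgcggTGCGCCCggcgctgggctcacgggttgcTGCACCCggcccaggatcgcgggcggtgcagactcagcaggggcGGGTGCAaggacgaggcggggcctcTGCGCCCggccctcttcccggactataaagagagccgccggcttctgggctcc
SLC30A1: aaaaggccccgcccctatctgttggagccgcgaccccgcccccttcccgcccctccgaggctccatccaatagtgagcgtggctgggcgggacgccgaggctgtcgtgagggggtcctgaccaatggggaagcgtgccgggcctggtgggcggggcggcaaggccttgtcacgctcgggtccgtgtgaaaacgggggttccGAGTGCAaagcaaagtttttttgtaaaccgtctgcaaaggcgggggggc

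The MT2A window held 7 MRE cores, the MT1H window 8 and the MT1X window 4, and the SLC30A1 window held 1. The cores did not overlap one another. Among 35116 promoter windows of the same length, 16.8% held TGCGCNC and 9.87% held TGCACNC on either strand. At least 1 core of either form was in 24.8% of windows, at least 4 in 0.37%, at least 7 in 0.0313% and at least 8 in 0.0171%. The AP-1 letters TGACTCA stood in MT2A from 104 to 98 bases before the start and in 4.2% of all windows. TATAAA stood 29 to 24 bases before the start of MT2A and 30 to 25 bases before that of MT1X, and in 10.7% of all windows. These matches are letters in a window, and binding to them was not measured.

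**Figure D1:**
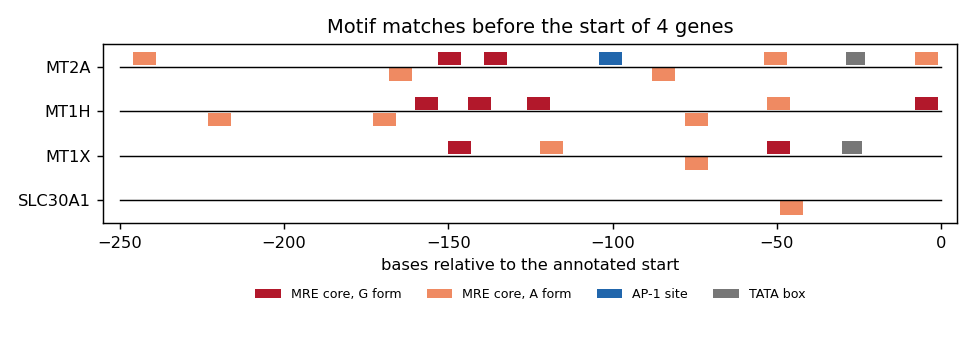
Matches to the MRE core, the AP-1 letters and the TATA box by distance in bases before the gene start, for the 3 metallothionein promoters with an entry and SLC30A1. Bars above a line match the strand of the gene and bars below match the opposite strand. The 7, 8 and 4 cores of MT2A, MT1H and MT1X and the 1 core of SLC30A1 are drawn at their positions, and those of MT1X lie between 150 and 47 bases before the start.

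Expression is given first as the deposited intensity, the mean brightness of a probe's beads, and then as a log2 normalised intensity, corrected for background and made comparable between arrays. A probe counted as detected on an array when its detection p was below 0.01. Of the 9 metallothionein probes, 4 were detected on at least 2 arrays and were tested. They were 1 probe each for MT2A, MT1F, MT1X and MT1E. The probes of MT2A, MT1F and MT1X were detected on all 12 arrays. The remaining 5 probes were detected on none of the 12 arrays. MT1G had intensities of 67 to 105.9, the 2 probes of MT1H lay at 82.2 to 101.9 and 82.4 to 111.8, MT1M lay at 66.8 to 96, and the second MT1E probe lay at 85.9 to 111.7. The lowest intensity detected on an array was between 107.5 and 135.2, so these probes carry only an upper limit. MT1H, whose promoter held the most MRE cores of the 3 examined, was therefore not measurable at any time. The 2 MT1E probes disagreed, since the tested one was detected on 8 arrays and the other on none.

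**Figure D2:**
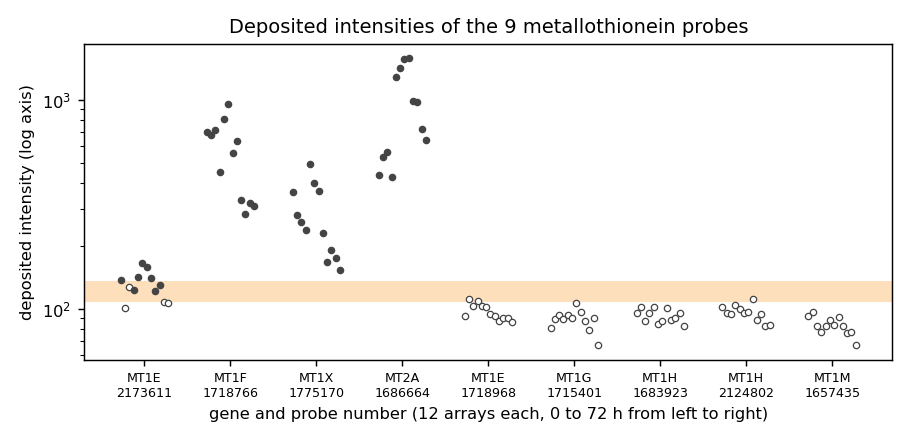
Deposited intensity (log axis) of the 9 metallothionein probes on each of the 12 arrays, with filled circles for detected and open circles for not detected. The orange band marks the lowest detected intensity over the arrays, 107.5 to 135.2. MT2A, MT1F and MT1X lie above the band on all arrays, whereas MT1G, MT1H, MT1M and the second MT1E probe lie within or below it.

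The arrays themselves were similar in quality, with 14077 to 15764 probes detected. The SD of the log2 difference between 2 arrays was 0.263 to 0.337 within a group and 0.357 to 0.714 between groups. The simple epithelial genes KRT8, KRT19, EPCAM and CLDN7 were detected on all 12 arrays, KRT7 on 7, and KRT18 on none with either of its 2 probes. Of the markers of other cell types, the leukocyte genes PTPRC and CD3E, 4 of 5 fibroblast genes and 3 of 4 endothelial genes were detected on no array. COL1A1 was detected on 7 arrays, CD14 on 5 and PECAM1 on 3, and LYZ, which also occurs in gastric epithelium, on all 12.

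After MPA addition, the 4 measurable metallothioneins were all higher at 12 h and then parted. MT2A stayed above its starting level at every later time, whereas MT1F and MT1X ended below theirs. MT1E was detected on 2 of 4 arrays at 0 h and on neither array at 72 h. At 12 h, 4 of the 4 tested probes were higher, beside 15.4% of all 13772 probes tested, and none was lower (31.2% of probes were called in either direction). Of all probes, 15.8% were lower at that time. At 24 h, 2 of 4 were higher and none lower, against 18.8% and 20% of all probes (38.8% called in either direction). At 48 h, 1 was higher and 2 were lower, against 19.1% and 21.7% of all probes (40.8% in either direction). At 72 h the counts were again 1 higher and 2 lower, against 19.3% and 20.7% (40% in either direction). The median log2 difference of the 4 probes from 0 h took the values 0.74, 0.48, -0.1 and -0.36 in order of time, while the median of all probes was between -0.04 and 0. Under median scaling of the arrays the shares of all probes called higher and lower were 11.2% and 17.9% after 24 h, 8.3% and 31.6% after 48 h, and 7.64% and 32.1% after 72 h, and the metallothionein calls at these times were the same in number. After 12 h the shares under that scaling were 10.8% and 8.63%. The metallothionein calls at 12 h were then 3, without MT1F (limma adjusted p = 0.065). Without 12 h replicate 1 the count at 12 h was 1 and without 12 h replicate 2 it was 2, and the count at 24 h was 1 without either 24 h array. All 4 comparisons share the same 0 h arrays. Calls come from limma with p-values adjusted over all probes by Benjamini-Hochberg and a threshold of 0.05.

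MT2A, the member most widely expressed in human tissues, had deposited intensities of 426.7 to 564.3 at 0 h, and of 1285 to 1422.1, 1570 to 1580.1, 973 to 990.2 and 640.8 to 721.2 after 12, 24, 48 and 72 h. Its log2 normalised intensities at 0 h were 8.09, 8.58, 8.75 and 8.69. After 12 h they were 10.15 and 10.14, after 24 h 10.44 and 10.65, after 48 h 10.22 and 9.95, and after 72 h 9.55 and 9.54. Every array with MPA lay above every 0 h array. MT2A rose 3.07-fold by 12 h (log2 difference 1.62, SE 0.17, limma adjusted p = 3.2e-05), 4.05-fold by 24 h (2.02, adjusted p = 2.8e-06), 2.94-fold by 48 h (1.56, adjusted p = 2.4e-05) and 2.02-fold by 72 h (1.02, adjusted p = 0.00063). These 4 calls held under every alternative processing run and without any single array.

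MT1F, a functional type 1 isoform, followed another course. Its log2 normalised intensities were 8.88, 8.95, 9.12 and 8.78 at 0 h. After 12 h they were 9.45 and 9.51, after 24 h 8.83 and 9.24, after 48 h 8.34 and 7.80, and after 72 h 8.14 and 8.29. The 12 h arrays lay above all 0 h arrays, 1 of the 24 h arrays lay among them and the other above, and the 48 h and 72 h arrays lay below them. MT1F was 1.46-fold higher at 12 h (log2 difference 0.55, SE 0.17, limma adjusted p = 0.026) and did not pass at 24 h (0.10, 95% interval -0.26 to 0.47, adjusted p = 0.67). It fell 1.82-fold by 48 h (-0.86, adjusted p = 0.0015) and stood 1.65-fold lower at 72 h (-0.72, adjusted p = 0.0049). The 12 h call was lost without 0 h replicate 1 or 4 (adjusted p = 0.051 and 0.054), without 12 h replicate 1 or 2 (0.091 and 0.14), under median scaling (0.065) and with the replicate number as a block (0.071). The 72 h call was lost without 72 h replicate 1 (0.05), and the 48 h call was held throughout.

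MT1X, another type 1 isoform, had log2 normalised intensities of 7.80, 7.45, 7.40 and 7.62 at 0 h. After 12 h they were 8.63 and 8.06, after 24 h 8.09 and 7.41, after 48 h 6.85 and 6.98, and after 72 h 6.90 and 6.74. Both 12 h arrays lay above the 0 h arrays, 1 of the 24 h arrays lay above them and the other among them, and the 48 h and 72 h arrays lay below. MT1X was 1.72-fold higher at 12 h (log2 difference 0.78, SE 0.20, limma adjusted p = 0.011), did not pass at 24 h (0.19, 95% interval -0.25 to 0.62, adjusted p = 0.5), and was 1.57-fold lower at 48 h (-0.65, adjusted p = 0.022) and 1.68-fold lower at 72 h (-0.75, adjusted p = 0.011). The 12 h value was 0.50 without 12 h replicate 1 and no longer passed (adjusted p = 0.16). The 48 h call was lost without 48 h replicate 1 or 2 (adjusted p = 0.13 and 0.07), and the 72 h call without 72 h replicate 2 (0.088).

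MT1E, also a type 1 isoform, was near the detection limit. Its log2 normalised intensities were 5.69, 4.70, 5.65 and 5.83 at 0 h. After 12 h they were 6.08 and 6.25, after 24 h 6.28 and 6.19, after 48 h 5.88 and 5.93, and after 72 h 5.44 and 5.48. It was detected on 2 of 4 arrays at 0 h, on both arrays at 12, 24 and 48 h, and on neither at 72 h. All arrays from 12 to 48 h lay above all 0 h arrays, and the low 0 h array was replicate 2. MT1E was 1.62-fold higher at 12 h (log2 difference 0.70, SE 0.25, limma adjusted p = 0.048) and 1.7-fold higher at 24 h (0.77, adjusted p = 0.027), and did not pass at 48 h (0.44, 95% interval -0.09 to 0.98, adjusted p = 0.17). Without 0 h replicate 2 the differences were 0.44 at 12 h (adjusted p = 0.022) and 0.51 at 24 h (0.008). The 12 h call was lost without 0 h replicate 3 (0.05), without 12 h replicate 1 or 2 (0.11 and 0.23), without either array of 24, 48 or 72 h (0.06 each), without background correction (0.051), without a detection filter (0.082) and with the 2 groups fitted alone (0.094). The 24 h call was lost without 24 h replicate 1 or 2 (0.14 and 0.095) and with the 2 groups fitted alone (0.061). At 72 h, with no array detected, the fitted difference from 0 h was 0.00 (95% interval -0.54 to 0.53, limma adjusted p = 0.99), which carries no more than the background level of the probe.

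**Figure D3:**
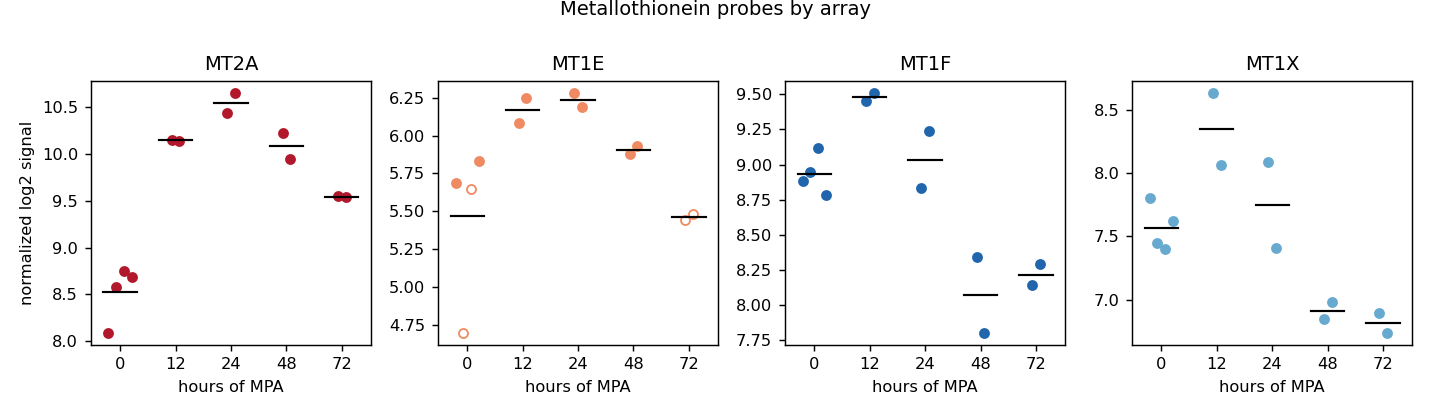
Log2 normalised intensity of the 4 tested metallothionein probes on each array at 0, 12, 24, 48 and 72 h, with open circles for arrays on which the probe was not detected and black bars for group means. The vertical scale differs between panels. MT2A stays above its 0 h arrays to 72 h, MT1F and MT1X pass from above to below theirs, and MT1E is not detected at 72 h.

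Fewer probes were called between consecutive times than against 0 h. From 12 to 24 h no metallothionein probe passed limma's adjusted threshold (5.78% of all probes did, 3.7% higher and 2.08% lower), although 2 of 4 had an unadjusted p below 0.05. From 24 to 48 h, 2 of 4 were lower and none higher, against 5.57% and 3.83% of all probes (9.4% called in either direction). Under median scaling 0.552% of all probes were higher and 3.66% lower. MT1F fell 1.95-fold over that day (log2 difference -0.96, SE 0.19, limma adjusted p = 0.012) and MT1X 1.78-fold (-0.83, SE 0.23, adjusted p = 0.044). MT2A differed by -0.46 (95% interval -0.89 to -0.03, adjusted p = 0.16) and MT1E by -0.33 (adjusted p = 0.51). The MT1F call was lost without 24 h replicate 2 (0.11), without 48 h replicate 2 (0.097) and with the 2 groups fitted alone (0.072). The MT1X call was lost without 0 h replicates 2, 3 or 4 (0.059, 0.05 and 0.054), without 24 h replicate 1 (-0.50, 0.28), without 48 h replicate 1 or 2 (0.16 and 0.13), without either 72 h array (0.055 each), under median scaling (0.052), without a detection filter (0.07) and with the 2 groups fitted alone (0.094). From 48 to 72 h none of the 4 passed limma's adjusted threshold (1.43% of all probes did, 0.508% higher and 0.922% lower), and 1 had an unadjusted p below 0.05.

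The comparison of 72 h with 12 h was added after the values were seen. Here 3 of the 4 probes were lower and none higher, against 15.9% and 15.5% of all probes (31.4% in either direction). Under median scaling 4.04% of all probes were higher and 25.5% lower. MT1X fell 2.89-fold (log2 difference -1.53, SE 0.23, limma adjusted p = 0.00059) and MT1F 2.41-fold (-1.27, SE 0.19, adjusted p = 0.00061), and both calls held without any single array. MT2A was 1.52-fold lower (-0.60, SE 0.20, adjusted p = 0.037), a call lost without 12 h replicate 1 or 2 (0.11 and 0.12), without 72 h replicate 1 or 2 (0.11 and 0.12) and without a detection filter (0.06). MT1E did not pass (log2 difference -0.7, SE 0.28, limma adjusted p = 0.078). Its mean at 12 h was 1.45-fold above the lowest detected signal of the 72 h arrays, on which it was not detected. That ratio makes no allowance for the spread between arrays, so it sets no lower limit on the difference. The MT1E difference between 72 and 12 h passed under median scaling (0.025), with a larger offset (0.048), with the 2 groups fitted alone (0.019) and without 0 h replicate 2 (0.0033).

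**Figure D4:**
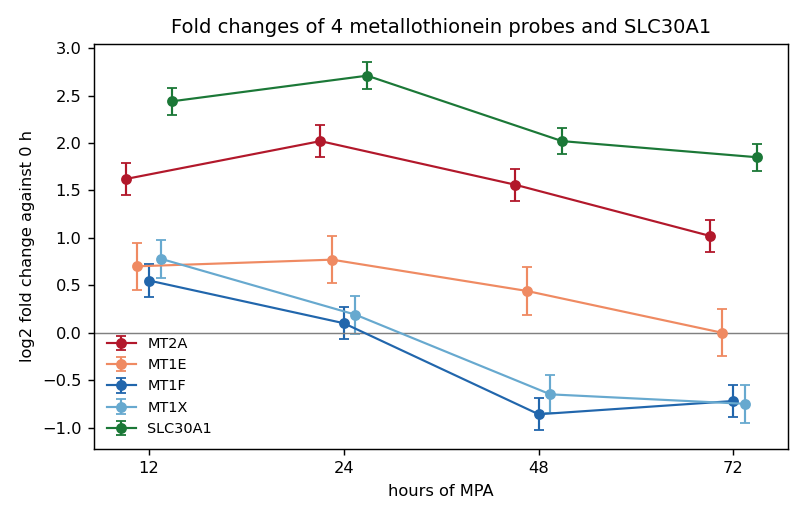
Log2 difference from 0 h at 12, 24, 48 and 72 h for the 4 tested metallothionein probes and SLC30A1, with error bars for the SE of the limma fit. MT2A and SLC30A1 stay above 0 at all times, and MT1F and MT1X lie above 0 at 12 h and below it at 48 and 72 h.

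The distance between members on the same array is given as a description with no test, since the late arrays of 48 and 72 h were pooled after the values were seen. Each value is the log2 difference between 2 members on an array, centred on its mean over the 0 h arrays, and MT1E was left out because it was not detected on several of these arrays. MT2A minus MT1F was 1.66 to 2.55 on the 4 late arrays and -0.38 to 0.32 on the 4 arrays of 0 h. MT2A minus MT1X was 1.69 to 2.4 on the late arrays and -0.66 to 0.39 at 0 h. In both pairs the late arrays lay above all 0 h arrays. MT1F minus MT1X was -0.55 to 0.18 on the late arrays and -0.28 to 0.36 at 0 h, so these groups overlapped.

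Over the 12 arrays, which share RNA, array and scan, Pearson's r was 0.79 between MT1F and MT1X and 0.67 between MT1E and MT2A. It was 0.03 between MT1F and MT2A, 0.08 between MT1X and MT2A, 0.42 between MT1E and MT1X and 0.26 between MT1E and MT1F. These coefficients describe these arrays and carry no test. MT1E was detected on only 8 of the 12 arrays. Its coefficients, and the mean of the 4 members used next, therefore rest partly on background-level values. The genes whose course was most like the mean of the 4 members were FGFR3, TK1 and SPC24 (r = 0.97 each) and ATPAF1 and PSMD8 (0.96 each). The most opposite were SNTB1, ALCAM, SEMA3C, PCMT1 and ASPSCR1 (-0.97 each). Of 10465 other genes, SLC30A1 ranked 33 in likeness to MT2A, with r = 0.96, whereas its r was 0.69 with MT1E, 0.11 with MT1X and -0.03 with MT1F.

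SLC30A1, the zinc exporter, had log2 normalised intensities of 9.39, 9.17, 9.35 and 9.68 at 0 h on its first probe. After 12 h both were 11.84, after 24 h 12.12 and 12.10, after 48 h 11.36 and 11.48, and after 72 h 11.40 and 11.10. All MPA arrays lay above all 0 h arrays. The log2 difference from 0 h was 2.44 at 12 h (SE 0.14, limma adjusted p = 5.7e-07), 2.71 at 24 h (5.6e-08), 2.02 at 48 h (6.6e-07) and 1.85 at 72 h (1.8e-06). Its second probe gave 2.33, 2.6, 2.08 and 2.12. RNA of MTF1, the zinc sensor, differed from 0 h by 0.06, 0.24, 0.24 and 0.08 (SE 0.12, limma adjusted p = 0.74, 0.14, 0.15 and 0.66). RNA of NFE2L2, a regulator of oxidant responses that also acts on metallothionein genes, differed by -0.22, 0.01, -0.16 and -0.04 (SE 0.13, adjusted p = 0.25, 0.95, 0.36 and 0.84).

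The gene lists below are to be read against the shares of all probes, 15.4%, 18.8%, 19.1% and 19.3% higher and 15.8%, 20%, 21.7% and 20.7% lower at 12, 24, 48 and 72 h. Of the 11 zinc exporter genes listed, 7 were measured, of which 2, 2, 3 and 4 were higher and 1, 0, 1 and 0 lower at 12, 24, 48 and 72 h. Their median log2 differences were 0.29, 0.22, 0.3 and 0.43. The 4 called at 48 h were 2 without 48 h replicate 2. SLC30A5, which loads zinc into the secretory pathway, rose by 1.04 on the log2 scale at 24 h (limma adjusted p = 5.3e-05). Its calls at 48 and 72 h were lost under median scaling (0.52, adjusted p = 0.051, and 0.35, 0.19). SLC30A4, a vesicular exporter, was detected on no 0 h array and passed as higher at 72 h (limma adjusted p = 0.00045). Its 72 h mean was 1.39-fold above the lowest detected signal of the 0 h arrays. That ratio makes no allowance for the spread between arrays, so it sets no lower limit on the difference. TMEM163, a vesicular zinc transporter, was lower at 48 h (adjusted p = 0.028) and was detected on 2 arrays in all, both at 0 h, so no fold is given. That call was lost without 0 h replicates 1, 2 or 3 (0.057, 0.061 and 0.054), without 48 h replicate 1 or 2 (0.079 and 0.16) and with the 2 groups fitted alone (0.052). Of 14 zinc importer genes, 9 were measured, with 1, 1, 2 and 0 higher and 3, 3, 4 and 3 lower, and medians of -0.11, -0.18, -0.02 and -0.28. The 4 called at 12 h and at 24 h were 2 without 12 h replicate 2 and without 24 h replicate 2, and the 6 at 48 h were 2 without 48 h replicate 2. SLC39A14, an importer of zinc and manganese, fell by 1.21 on the log2 scale at 72 h (adjusted p = 8e-05) and SLC39A11 by 1.33 at 24 h (2.9e-05). SLC39A10 fell by 0.71 at 12 h (adjusted p = 0.032) and SLC39A4, the importer of dietary zinc, by 0.67 at 48 h (0.0062). The SLC39A10 call was lost without 0 h replicate 1 or 2 (0.071 and 0.073), without 12 h replicate 2 (-0.37, 0.37), without a detection filter (0.055) and with the 2 groups fitted alone (0.064), and the SLC39A4 call without 48 h replicate 2 (0.054) and with the replicate number as a block (0.053).

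**Figure D5:**
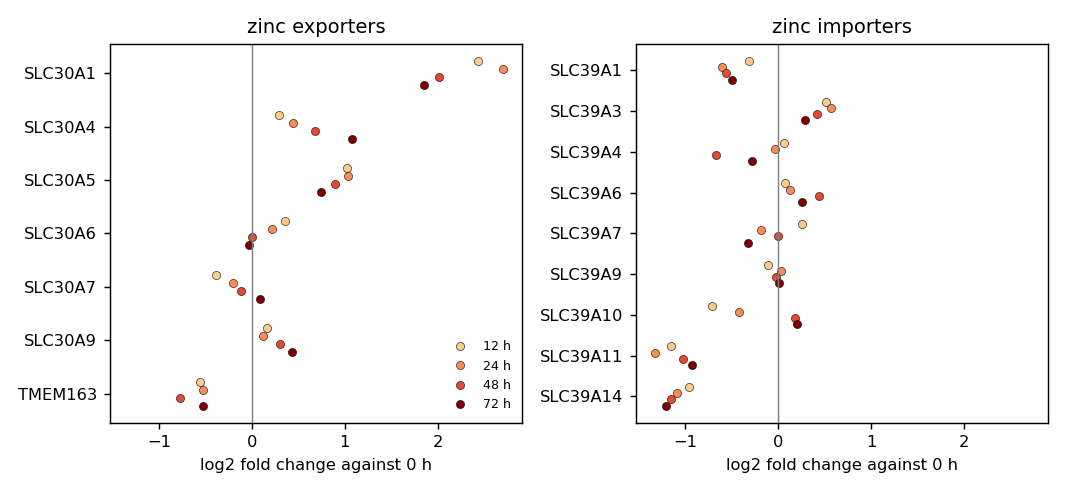
Log2 difference from 0 h at 12, 24, 48 and 72 h of the measured zinc exporter and zinc importer genes. SLC30A1 lies above the other exporters at all times, at 1.85 to 2.71 on its first probe, and SLC39A11 and SLC39A14 lie below 0.

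Of 8 genes listed under metal regulation of transcription, 7 were measured. None was higher, and 2, 3, 4 and 3 were lower at 12, 24, 48 and 72 h. The medians were -0.22, -0.26, -0.35 and -0.27. The lower genes at 12 and 48 h include MTF2, a Polycomb gene rather than a metal sensor. The 2 called at 12 h were 1 without 0 h replicate 1 or 12 h replicate 2. The 3 at 24 h were 0 without either 24 h array and 1 without 0 h replicate 1 or 3, and the 4 at 48 h were 2 without either 48 h array. USF2, a factor that binds E-boxes in metallothionein promoters in mouse, fell by 0.98 on the log2 scale at 72 h (limma adjusted p = 0.00044). KEAP1, the inhibitor of NFE2L2, fell by 0.71 at 72 h (adjusted p = 0.00092), SP1, a general activator, by 0.66 at 48 h (0.0071; without 48 h replicate 2, -0.42 and 0.13) and MTF2, a Polycomb protein, by 0.6 at 12 h (0.0012). Of 9 other metallothionein genes and pseudogenes, 5 were named on the array and only TESMIN, a testis gene once named for this family, was measured. It was detected on 4 arrays, differed from 0 h by 0.69, 0.53, -0.41 and -0.37, and passed at no time. Its 12 h difference passed under median scaling, without 0 h replicate 4 and without either 24 h array, and its 24 h difference passed without 24 h replicate 1.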

How the data were processed

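AGS cells were profiled on 12 arrays. The deposited intensity of a probe is the mean of its bead signals, with no normalization or background subtraction. The detection score deposited by the authors beside them is a fraction from 0 to 1, equal to 1 minus the detection p. A table of log2 values, which the authors made with lumi under unstated settings, served as an alternative.

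Background was removed by normexp with inferred negative controls and an offset of 16, and the log2 intensities were then quantile normalized. R 4.3.3 was used with limma 3.58.1 and statmod 1.5.0. Gene names came from the annotation of an earlier array version than the study names. Of 48803 probes, 28098 named 1 gene, 13 several and 20692 none. For 28059 probes the current name was taken through the gene identifier, whether or not it differed from the annotation. Probes naming 1 gene with a detection p below 0.01 on at least 2 arrays were kept (13772 probes, 10469 genes). A linear model of the 5 groups was fitted to 12 arrays with lmFit and eBayes and adjusted by Benjamini-Hochberg over all kept probes. Folds above the lowest detected signal set the mean of the brighter group against that signal on the dimmer arrays. They make no allowance for the spread between arrays.

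All member probes were named, together with MTF1, SLC30A1, NFE2L2, up to 4 genes per list with the largest called change, and the 5 genes most and least like the family mean. The members and lists were chosen with earlier results of these data known. On simulated data for 12 h against 0 h over 13772 probes, 82 of 100 changes of 1 on the log2 scale and 99 of 100 of 2 were recovered, and 4 of 13572 unchanged probes were called. Only 100 probes were changed by each size in the simulation, whereas 31.2% of probes were called in the data at 12 h. Changes below 1, such as those of MT1E, MT1F and MT1X at 12 h, were not simulated. The number of arrays limits the precision. The alternatives tried were median scaling, an offset of 50, leaving out the background correction, the authors' log2 table, other filters, a threshold of 0.01, the compared groups alone, a replicate block and leaving out each array.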

Additional observations from a re-analysis of the deposited data

Results flagged for a closer look

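Several differences were listed because the time points themselves differed by limma's test. MT1F and MT1X were lower at 48 h than at 24 h, with log2 differences of -0.96 and -0.83, and between 12 and 72 h the 2 genes differed by -1.27 and -1.53. MT2A differed between 72 and 12 h by -0.6. The first SLC30A1 probe differed by -0.69 between 48 and 24 h and by -0.6 between 72 and 12 h, and the second by -0.51 between 48 and 24 h. For 72 h against 12 h the second probe differed by -0.2 and was not called (limma adjusted p = 0.28), so the 2 probes disagreed. The first probe's differences no longer passed without 24 h replicate 1 or 2 (limma adjusted p = 0.11 and 0.13), without 48 h replicate 1 or 2 (0.12 and 0.083), and, for 72 h against 12 h, without 12 h replicate 1 or 2 (0.062 and 0.076) or 72 h replicate 2 (0.14).

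The 0 h value of MT1E on replicate 2 stood apart from the other 3 arrays. Its gap to the nearest array was 0.84 of the group's range, above Dixon's limit at 95% for 4 samples. Chance alone flags about 1 group in 20. The probe was not detected on that array.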

How the results depend on the processing

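MT2A and SLC30A1 kept their calls against 0 h under every alternative run, and no called metallothionein difference changed direction. The number of metallothionein probes called at 48 h against 24 h, 2 in the main analysis, was 1 under median scaling, 1 without a detection filter, 0 with the 2 groups fitted alone and 0 at a threshold of 0.01. At 24 h against 0 h the 2 called became 1 with probes detected on all 12 arrays. They also became 1 with the 2 groups alone and 1 at 0.01. At 12 h the 4 became 3 under median scaling, 3 without background correction and 1 at 0.01. The 12 h call of MT1E was also lost without a detection filter and with the 2 groups alone. That of MT1F was lost with the replicate number as a block. A stricter threshold can only lower a count, and MT1E is not among the probes detected on all 12 arrays. For the other settings the cause was not tested.

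Leaving out each array in turn gave 1 to 4 called probes at 12 h, 1 to 2 at 24 h, 2 to 3 at 48 h, 2 to 3 at 72 h, 0 to 2 for 48 h against 24 h and 2 to 4 for 72 h against 12 h. For 24 h against 12 h and 72 h against 48 h it gave 0 each time. Uncalled differences that changed sign were MT1E at 72 h, where it was not detected (0.01 with the authors' values, 0.00 without background correction, -0.26 to 0.12 with an array left out), MT1F at 24 h (-0.04 under median scaling, -0.11 to 0.31 with an array left out), MT1X at 24 h (-0.15 to 0.52), MT1E at 24 h against 12 h (-0.02 under median scaling, -0.02 to 0.15) and MT1F at 72 h against 48 h (-0.13 to 0.41).

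With the replicate number as a block, the fitted difference of the undetected MT1E at 72 h from 0 h was 0.27. The labels do not say whether the replicate numbers pair the arrays. Replicate differences over all probes correlated at -0.14 to 0.14 between groups, which does not settle it. Under median scaling the median of all probes against 0 h was 0.02, -0.13, -0.30 and -0.31 at 12, 24, 48 and 72 h, where it was 0.00, -0.04, -0.04 and -0.03 in the main analysis, and MT2A was then 0.69 at 72 h, MT1F -1.03 and MT1X -0.97.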

Other observations

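Other metal and thiol genes were counted from lists chosen with earlier results known. Of all probes, 15.4%, 18.8%, 19.1% and 19.3% were higher and 15.8%, 20%, 21.7% and 20.7% lower at 12, 24, 48 and 72 h, and several of the shares that follow are near these. Of 13 measured copper handling genes, 3, 4, 4 and 4 were higher and 3, 2, 2 and 1 lower at 12, 24, 48 and 72 h, and the 6 called at 12 h were 3 without 12 h replicate 1. SLC31A2, a copper transporter-like protein, rose by 2.15 on the log2 scale at 24 h (limma adjusted p = 3.7e-08), the copper chaperone ATOX1 by 0.78 at 24 h (0.00076), while STEAP3, a metalloreductase, fell by 0.71 at 72 h (0.00033). COX11, a copper chaperone of cytochrome oxidase, was detected on only 1 of 4 arrays at 0 h and on all later ones, and passed at 72 h (limma adjusted p = 0.00034). Of 7 iron handling genes, 1, 3, 2 and 2 were higher and 0, 0, 1 and 0 lower. The 1 called at 12 h was lost without 0 h replicate 1 or 4 or 12 h replicate 1, the 3 at 24 h were 0 without 24 h replicate 2, the 3 at 48 h were 1 without 0 h replicates 1, 2 or 3 or 48 h replicate 2, and the 2 at 72 h were 1 without either 72 h array. The iron exporter SLC40A1 rose by 0.86 at 48 h (limma adjusted p = 0.0022). Under median scaling SLC40A1 was 0.46 at 48 h (0.14) and no iron gene was called at 12 or 24 h.

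Of 14 glutathione and thiol redox genes, 5, 3, 3 and 3 were higher and 0, 2, 5 and 6 lower. The 5 called at 12 h were 3 without 12 h replicate 2, the 5 at 24 h were 3 without 0 h replicate 2 or 24 h replicate 1 and 2 without 24 h replicate 2, the 8 at 48 h were 5 without 48 h replicate 1, and the 9 at 72 h were 5 without 72 h replicate 2. GPX1, a glutathione peroxidase, rose by 1.65 at 24 h (limma adjusted p = 3.3e-06). GPX2 was 0.42 higher at 12 h (0.011), a call lost without 12 h replicate 1 or 2 (0.073 and 0.051), under median scaling (0.16) and with the replicate number as a block (0.058), and fell by 1.39 at 72 h (1.8e-06). HMOX1, heme oxygenase, fell by 1.8 at 72 h (0.00017). SLC7A11, the cystine importer, was detected on 3 of 4 arrays at 0 h and on none with MPA. It passed as lower at 72 h (limma adjusted p = 0.0027). Its 0 h mean was 1.23-fold above the lowest detected signal of the 72 h arrays. That ratio makes no allowance for the spread between arrays, so it sets no lower limit on the difference. Of 7 measured genes in the glucocorticoid list, 3, 4, 4 and 5 were higher and none lower at 12, 24, 48 and 72 h. The medians were 0.31, 0.52, 0.63 and 0.62. The list holds NR3C1, the gene of the glucocorticoid receptor itself, beside genes that glucocorticoids induce. NR3C1 was detected on 4 arrays and differed from 0 h by 0.31, 0.52, 0.63 and 0.64. Its values are therefore the medians at 12, 24 and 48 h. DUSP1 rose by 1.47 at 48 h (limma adjusted p = 3.1e-06), CRISPLD2 by 1.38 at 24 h (5.6e-06), KLF9 by 1.28 at 72 h (0.00023) and FKBP5 by 0.8 at 12 h (0.00092). Under median scaling, 2 were called at 24 h and 3 at 72 h. The 4 called at 24 h were 2 without 24 h replicate 2, and the 5 at 72 h were 3 without 0 h replicate 3 or 4 or 72 h replicate 2.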
